A study of Mus musculus with 24 samples.

Results

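The TGF-beta and activin signals of the dermal papilla (DP), a cluster of mesenchymal cells beneath the follicle epithelium, were followed in 10 of the 25755 genes of the expression tables. The 10 genes were taken by name, by no threshold on a measured value, and all 10 were found and passed the filter on low values in every comparison. They encode the ligands Tgfb1, Tgfb2 and Tgfb3, the latency protein Ltbp1, the receptors Tgfbr1, Tgfbr2 and Tgfbr3, the activin subunits Inhba and Inhbb, and the activin antagonist follistatin (Fst). RNA was sequenced from DP cells of mice lacking Hdac1 and Hdac2 in the DP (dM1/2) and of controls, 3 libraries each at postnatal day 20 (P20), P24, P28 and P60. By the study's methods P20 is the telogen, or resting phase, of the first hair cycle, P24 and P28 are early and mid anagen, the growth phase, of the second, and P60 is the telogen of the second.

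Every mouse carried Cor-cre/+, a Cre allele driven by Corin and so active in the DP, and the dM1/2 mice were Hdac1Flox/Flox and Hdac2Flox/Flox. The controls also carried floxed alleles: Hdac1Flox/+ or Hdac2Flox/+ alone, both of these, or either gene Flox/Flox with the other Flox/+. The labels do not say which of these control genotypes a library came from. The Cre line was on the FVB background and the floxed lines on C57BL/6J. DP cells were marked by YFP, and the YFP-positive cells of each mouse were sorted separately, in a first sort and a re-sort. The methods give females for P20, males for P24 and P28 and both sexes for P60, so that sex and stage cannot be told apart in comparisons between ages. In sorted bulk RNA, fewer cells of a type and less RNA per cell cannot be told apart.

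TGF-beta ligands are secreted in a latent complex that latent TGF-beta binding proteins such as Ltbp1 anchor in the extracellular matrix, from which integrins and proteases release them. The free ligand binds the type II receptor Tgfbr2, which recruits and activates the type I receptor Tgfbr1, and Tgfbr1 in turn phosphorylates Smad2 and Smad3. Tgfbr3, or betaglycan, is a co-receptor that presents ligand, above all Tgfb2, and also binds inhibin. Inhba and Inhbb encode the beta subunits that pair into activins, which signal through related receptors to the same Smads, and Fst binds activins and blocks them. In the hair follicle, Tgfb2 from the DP is known to act on the stem cells above it at the start of anagen, and Tgfb1 is known to favour the regression phase.

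Depth on genes was 11635062 to 13369732 reads per library at P20, 35469841 to 49331751 at P24, 37171260 to 48331795 at P28 and 8171944 to 9724000 at P60. Values are normalized reads, the read count of a gene divided by the size factor of its library, and 3 reads, the upper limit that a count of 0 allows, are at most 8.60 normalized reads in any library. Hdac1, a targeted gene, was 675, 668 and 668 normalized reads in the P24 controls and 209, 188 and 116 in P24 dM1/2, a log2 difference of −2.01 that passed the test (adjusted p = 0.00167). At P28 Hdac1 was 214, 529 and 105 in the libraries labelled control and 190.2, 149 and 126 in dM1/2, so that the library labelled P28 control 3 was below every dM1/2 library (log2 difference −0.58, adjusted p = 0.454). P28 control 1, at 214, was above every P28 dM1/2 library but below every P24 control. The control genotypes of the methods include Hdac1Flox/Flox with Hdac2Flox/+, and the genotype of these libraries was not tested. In the library labelled P28 control 3 the DP marker Corin was 75255 normalized reads, beside 41112 and 30326 in P28 controls 1 and 2 and 4581, 4009 and 5005 in P28 dM1/2. Hdac1 did not pass at P20 or P60 either, nor Hdac2 at any age, and reads outside the floxed exons are counted in both genes. Each member difference called at P28 is therefore also given without the library labelled P28 control 3. Those fits keep P28 control 1.

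Of 12 DP markers none was at 0 in all libraries of a group, and their summed level was 174964 to 209115 normalized reads in P24 controls against 88368 to 105880.0 in P24 dM1/2, and 109132 to 275200.0 against 61782 to 70063 at P28. In dM1/2, 6 of the 12 DP markers were lower and 1 higher at P24, and 5 lower and 3 higher at P28, so that the DP markers moved with the member results at these ages and their part in them was not tested. Summed over the groups, the 8 keratinocyte markers ranged from 91.2 to 798 normalized reads per library, the 6 melanocyte markers from 247 to 2764, the 6 immune markers from 59.1 to 729.6, the 5 endothelial markers from 366 to 6046, the 3 Schwann markers from 15.2 to 151 and the 4 muscle and pericyte markers from 655 to 9158. The defining markers Krt17, in P20 controls, and Tyrp1, in both P60 groups, were at 0 in all 3 libraries. At P28 none of the keratinocyte, melanocyte, immune, endothelial, Schwann, and muscle and pericyte markers passed the test by genotype, and at P24 1 endothelial, 1 immune and 1 keratinocyte marker were lower in dM1/2. At P60 the library dM1/2 1 stood apart, with the highest endothelial sum (6046) of all 24 libraries.

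The genes lie, in GRCm38, with Tgfb1 at chr7:25687002-25705077 (plus strand), Tgfb2 at chr1:186622792-186705989 (minus strand), Tgfb3 at chr12:86056745-86079041 (minus strand), Ltbp1 at chr17:75005568-75392512 (plus strand), Tgfbr1 at chr4:47353222-47414931 (plus strand), Tgfbr2 at chr9:116084293-116175360 (minus strand), Tgfbr3 at chr5:107106570-107289629 (minus strand), Inhba at chr13:16011851-16031621 (plus strand), Inhbb at chr1:119415465-119422248 (minus strand) and Fst at chr13:114452290-114458951 (minus strand). Reads were counted over the exons of each gene, so that a value does not tell its isoforms or its coding and untranslated parts apart.

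The 250 bases before the start site are shown for the ligand gene that was higher in dM1/2 in anagen and for 3 members that were lower at P28, since these genes moved in opposite directions in the same libraries. They are RefSeq promoters of GRCm38.p6, read 5′ to 3′ on the strand of the gene, and 7 of the 10 members had an entry (none was matched for Tgfb3, Tgfbr3 and Fst). Capitals mark any of 6 motifs searched on both strands: the TATA box (TATAAA), the GC box (GGGCGG), the AP-1 site (TGANTCA), the CRE half-site (TGACG), the CCAAT box (CCAAT) and the Smad box (CAGACA).
Tgfb1, chr7:25686752-25687001, plus strand: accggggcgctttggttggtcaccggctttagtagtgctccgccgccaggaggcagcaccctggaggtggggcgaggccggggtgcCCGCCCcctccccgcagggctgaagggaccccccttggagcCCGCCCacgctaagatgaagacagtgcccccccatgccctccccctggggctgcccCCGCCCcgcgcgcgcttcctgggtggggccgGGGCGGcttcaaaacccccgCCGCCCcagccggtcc
Tgfb2, chr1:186705990-186706239, minus strand: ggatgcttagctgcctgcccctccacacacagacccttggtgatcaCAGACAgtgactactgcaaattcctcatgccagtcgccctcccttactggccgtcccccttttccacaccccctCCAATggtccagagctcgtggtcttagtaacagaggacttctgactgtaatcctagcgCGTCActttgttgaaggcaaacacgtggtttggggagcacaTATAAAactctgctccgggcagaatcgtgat
Inhba, chr13:16011601-16011850, plus strand: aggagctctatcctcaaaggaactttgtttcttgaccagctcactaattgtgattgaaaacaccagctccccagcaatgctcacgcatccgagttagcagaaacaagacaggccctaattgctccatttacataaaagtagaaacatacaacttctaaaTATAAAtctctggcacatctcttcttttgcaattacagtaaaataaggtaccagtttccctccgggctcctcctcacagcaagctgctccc
Ltbp1, chr17:75005279-75005528, plus strand: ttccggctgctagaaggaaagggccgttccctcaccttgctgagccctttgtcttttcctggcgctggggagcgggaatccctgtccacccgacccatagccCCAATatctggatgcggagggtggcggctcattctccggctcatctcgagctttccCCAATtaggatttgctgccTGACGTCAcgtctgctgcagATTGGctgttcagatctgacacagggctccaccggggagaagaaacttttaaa

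The Tgfb1 stretch held 5 GC boxes and none of the other motifs, and 75.2% of its bases were G or C, above the upper quartile of 61.2% over all 32851 RefSeq promoter entries (median 52.4%). The Tgfb2 stretch held a TATA box, a CRE half-site, a CCAAT box and a Smad box and no GC box, with 53.6% G or C. The Inhba stretch held a TATA box only, with 43.2% G or C, below the lower quartile of 45.2%. Ltbp1 has 2 entries, and the stretch shown, the one nearest the annotated start of the gene, held 3 CCAAT boxes and 2 CRE half-sites that overlap each other on opposite strands. The other Ltbp1 entry, at chr17:75178531-75178780, held 2 Smad boxes and none of the other motifs. Of all 250-base promoters, 32.7% held a GC box, 12.4% a TATA box, 6.75% an AP-1 site, 17.8% a CRE half-site, 33.8% a CCAAT box and 17.1% a Smad box. These matches describe the letters of the window and not a bound site.

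Levels were compared between genes only as normalized reads per kilobase of annotated exon. Over the 12 control libraries the order was Ltbp1 (2733 ± 1221, mean ± SD), Tgfbr3 (1720.2 ± 904), Tgfbr2 (1346 ± 742), Fst (628 ± 662), Inhba (531 ± 519), Tgfbr1 (502 ± 124), Tgfb2 (435 ± 167), Tgfb3 (398 ± 101), Inhbb (151 ± 115) and Tgfb1 (136 ± 32.0). Neighbours in this order differed by less than the larger of their SDs, except Tgfb3 and Inhbb, while Ltbp1 and Tgfbr3, and Tgfbr2 and Fst, differed by more than the smaller of their SDs. The ranges of the 12 libraries overlapped between every pair of neighbours. Of the ligands of the TGF-beta group, Tgfb1 was thus the lowest in controls and Ltbp1, the anchoring protein, the highest transcript of the 10.

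In controls the members differed between ages, in the largest number from P20 to P24. Between telogen at P20 and early anagen at P24 all 10 members passed the test (background 32.7% of all genes): Fst, Inhba, Ltbp1 and Tgfbr1 rose, and Tgfb1, Tgfb2, Tgfb3, Tgfbr2, Tgfbr3 and Inhbb fell. The largest rise was that of the activin antagonist Fst, from 873, 1144 and 932 normalized reads at P20 to 5961, 7662 and 9325 at P24, a log2 difference of 2.94 (adjusted p = 9.07e-05), and no P24 library overlapped a P20 library. Among the receptors, Tgfbr3 fell from 14278, 14430.4 and 13021 to 5926, 4371 and 3679 (−1.60, adjusted p = 0.00428), Tgfbr2 changed by −1.25 (adjusted p = 0.0428) and Tgfbr1 by 0.69 (adjusted p = 0.0187). Of the ligands, Tgfb2 changed by −1.60 (adjusted p = 0.00567), Tgfb3 by −0.76 (adjusted p = 0.00288) and Tgfb1 by −0.75 (adjusted p = 0.00424). The Tgfbr2 call was kept in 3 of the 12 fits that left out 1 control library. The count of members was 6 without P20 control 2 (background of that refit 24.1%), P20 control 3 (21.5%) or P24 control 3 (22.4%).

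Between early and mid anagen, 5 members passed (background 5.64%). Fst fell to 2353, 1209 and 2875 normalized reads (−1.90, adjusted p = 0.0055), while the activin subunits rose: Inhba from 1918, 3037 and 3180.1 to 6819, 7108 and 11362 (1.63, adjusted p = 0.0233) and Inhbb by 1.79 (adjusted p = 0.0303). Tgfb3 rose by 1.0 (adjusted p = 0.00319) and Tgfb1 by 0.73 (adjusted p = 0.0189). Without P24 control 3, 2 members passed (background 2.11%). From P20 to P28, 3 members were called (background 27.5%), Inhba, Ltbp1 and Fst, and without P28 control 2, whose Tgfbr2 and Tgfbr3 levels were the highest of the P28 libraries, 5 were (background 34.8%).

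From mid anagen to the second telogen, 5 members passed (background 30%). Inhba fell to 793, 979.5 and 1861 normalized reads (−2.86, adjusted p = 0.00035), Fst changed by −1.45 (adjusted p = 0.00505) and Ltbp1 by −1.18 (adjusted p = 0.00852), and the receptors Tgfbr2 and Tgfbr3 rose by 1.65 (adjusted p = 0.0144) and 1.32 (adjusted p = 0.0116). From P24 to P60, 9 members passed (background 36%), all but Tgfb2 (0.92, adjusted p = 0.0536). Between the telogen of the first and of the second cycle none passed under limma (background 8.36%). In that comparison 1 member, Inhbb, had an unadjusted p under 0.05, edgeR called 0 members (6.55% of all genes) and DESeq2 called Inhbb (12.5% of all genes). These comparisons share control samples, so that their directions are not independent. The P20 and P60 libraries were also the shallowest, and depth cannot be told apart from stage. In controls the summed DP markers were 27673 to 39160 normalized reads at P20 and 174964 to 209115 at P24. They were 109132 to 275200 at P28 and 21588.5 to 37223 at P60. The summed muscle and pericyte markers were 6701 to 8665 at P20, 1306 to 5116 at P24, 655 to 5449 at P28 and 6901 to 7655 at P60. The part of these markers in the comparisons between ages was not tested.

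**Figure D1:**
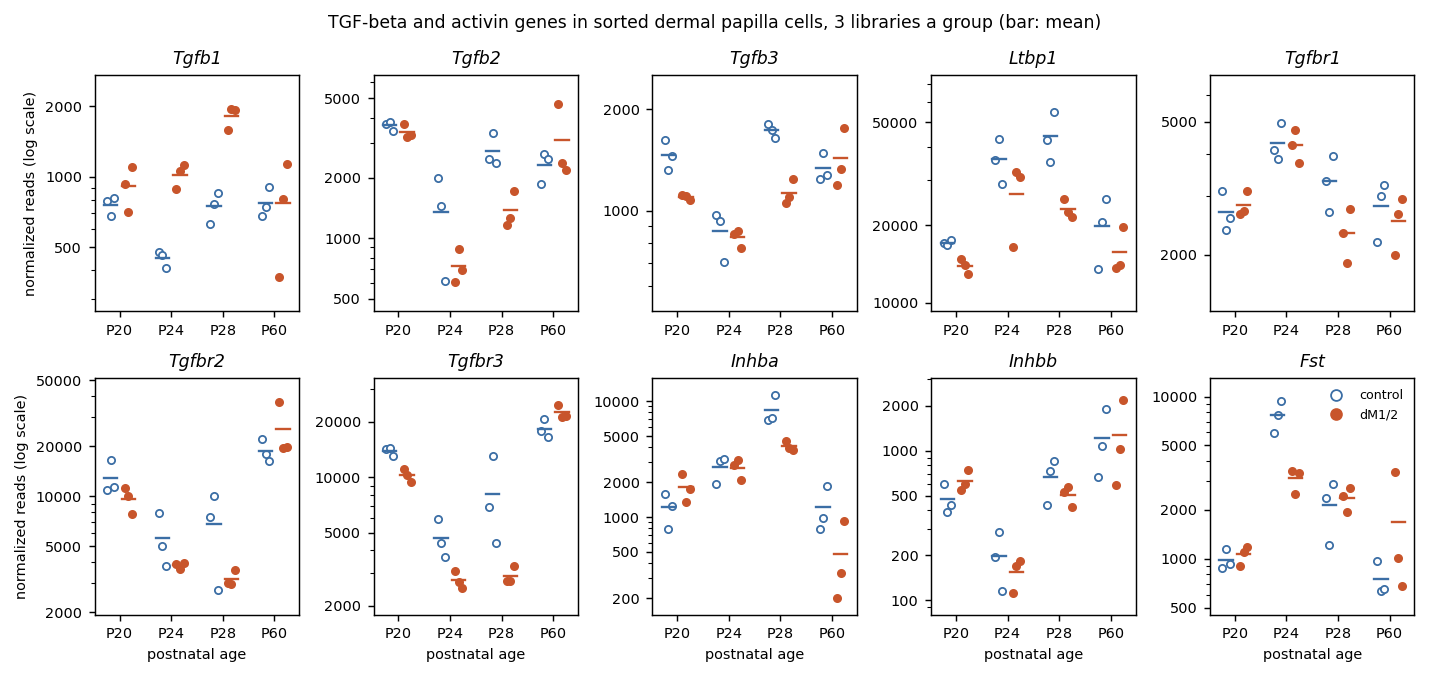
Normalized reads of the 10 members (log axis, a panel each) in every library by postnatal age, open circles for controls, filled circles for dM1/2 and a bar for the mean of 3 libraries. Tgfb1 in dM1/2 lay above every control at P24 and P28, and Fst in P24 controls lay above every other library.

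By genotype the members differed in anagen. No member passed the test at P20 (background 0.433%), 3 passed at P24 (background 26.6%), 6 at P28 (background 35.5%) and 0 at P60 (background 0%). In dM1/2, Tgfb1 was higher and Fst and Tgfbr3 were lower at P24, and at P28 Tgfb1 was higher and Tgfb2, Tgfb3, Ltbp1, Tgfbr3 and Inhba were lower. The share of members called was near the background at P24 and above it at P28. In P24 and P28 dM1/2 the summed level of the DP markers was also below that of every control, and its part in these calls was not tested. The median log2 difference of the members was −0.39 at P24 and −0.75 at P28, beside −0.013 and 0.0038 over all genes tested. The ranges of the 3 control and 3 dM1/2 libraries did not overlap for 3 members at P20 (background 25.4% of genes), 3 at P24 (44.8%), 6 at P28 (51.3%) and 1 at P60 (8.87%).

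At P20, 4 members had an unadjusted p under 0.05. At this age edgeR called 0 members (0.563% of all genes) and DESeq2 called 1, Tgfbr3 (4.82% of all genes). Without P20 control 1 limma called 1, Inhbb (0.60, adjusted p = 0.0468), where 11.1% of all genes were called. At P60, 1 member had an unadjusted p under 0.05, Inhba, and edgeR and DESeq2 called 0. Without P24 control 3, Tgfb2 (−1.24, adjusted p = 0.00479) and Tgfbr2 (−0.72, adjusted p = 0.0365) passed at P24 as well, for 5 members (background 28.7%). The count at P28 was 3 without dM1/2 2 (background 21.5%) or dM1/2 3 (23.4%) and 7 without P28 control 2 (36.6%) or the library labelled P28 control 3 (40.9%).

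**Figure D2:**
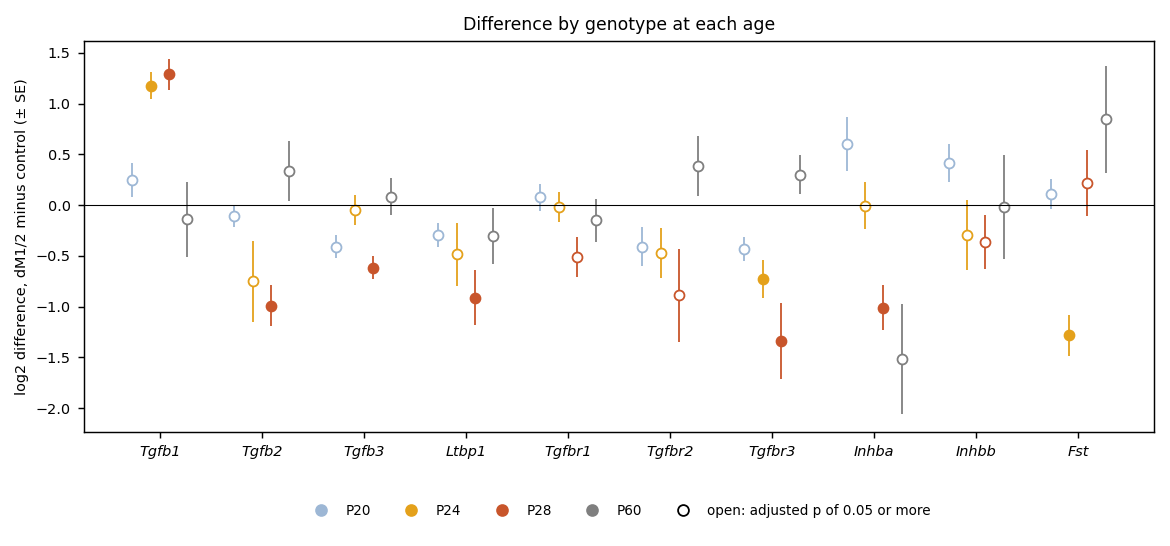
Log2 difference between dM1/2 and controls, with its standard error, of each member at the 4 ages, filled where the limma adjusted p was under 0.05. Tgfb1 was the member above 0 with a filled point at P24 and P28, and no P20 or P60 point is filled.

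Tgfb1 was the ligand that rose. At P24 it was 480.1, 463 and 406 normalized reads in controls and 885, 1060.3 and 1119 in dM1/2, 2.27 times the control mean. Every dM1/2 library was above every control, with a log2 difference of 1.18 ± 0.14 (SE), adjusted p = 0.00188. At P28 it was 627, 766 and 856 in controls and 1590.2, 1949 and 1930.2 in dM1/2, 2.43 times the control mean, again with no overlap (1.29 ± 0.16 (SE), adjusted p = 0.00145; 1.39 without the library labelled P28 control 3). In telogen the groups overlapped: P20 controls held 790.1, 682 and 809 and dM1/2 935, 710.4 and 1104 (log2 difference 0.25 ± 0.17 (SE), adjusted p = 0.429), and P60 controls 678, 746 and 904 and dM1/2 374, 805 and 1134 (−0.14 ± 0.37 (SE), adjusted p = 0.997). The 3 P28 dM1/2 libraries held the highest Tgfb1 of all 24.

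Tgfb2, the ligand linked to anagen onset, moved the other way. At P28 it was 2482, 3369 and 2378 normalized reads in controls and 1165, 1263 and 1723 in dM1/2. All dM1/2 libraries lay below all controls, with a control mean 1.98 times the dM1/2 mean and a log2 difference of −0.99 ± 0.20 (SE), adjusted p = 0.01 (−1.08 without the library labelled P28 control 3). At P24 controls held 1999, 1445 and 614 and dM1/2 604, 885 and 694, where the third control fell among the dM1/2 values and the test did not pass (−0.75 ± 0.40 (SE), adjusted p = 0.205). The P20 groups were 3723, 3828 and 3447 and 3738, 3196 and 3275, and the P60 groups 1864, 2624 and 2481 and 4693, 2381 and 2198, with the highest value of all in P60 dM1/2 1.

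Tgfb3, the third isoform, was lower in dM1/2 at P28, with 1807, 1729 and 1647 normalized reads in controls and 1052, 1097 and 1238 in dM1/2 (−0.62 ± 0.11 (SE), adjusted p = 0.00697; −0.65 without the library labelled P28 control 3). The ranges did not overlap at P28, nor at P20, where controls held 1615, 1315 and 1451 and dM1/2 1112, 1102 and 1073 but the adjusted p was 0.108. At P24 the groups overlapped, at 972, 933 and 704 and 853, 869.8 and 776. Tgfb3 shares part of its locus with Ttll5 on the opposite strand, which averaged 426.9 normalized reads over the 24 libraries, and annotated antisense genes overlap parts of Tgfb2, Inhba and Fst. The strand setting of the counting was not given in the sources used here, so that reads of these overlaps cannot be told apart by strand. Tgfbr3 and Ltbp1 hold annotated genes on their own strand, whose reads strand would not separate in any case.

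The make-up of the ligand transcripts was followed as shares. Per kilobase, Tgfb1 made up 11.4, 12.2 and 15.9% of the summed Tgfb1, Tgfb2 and Tgfb3 reads in P28 controls and 38.1, 41.6 and 36.6% in P28 dM1/2. At P24 the shares were 13.1, 14.9 and 20.4% and 33.0, 33.9 and 38.9%, and at neither age did the groups overlap. The Tgfb2 share went from 41.5 ± 4.52% (SD, n = 3) in P28 controls to 25.4 ± 2.66% in dM1/2. At P20 the Tgfb1 share was 12.4 ± 1.07% and 16.6 ± 3.06%, and at P60 16.3 ± 1.98% and 14.2 ± 7.30%. These shares were chosen after the values were seen, and with 3 libraries against 3 the exact two-sided permutation test cannot go below p = 0.1, the value reached for Tgfb1 at P20, P24 and P28 (adjusted 0.178 over 16 tests of shares and ratios).

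**Figure D3:**
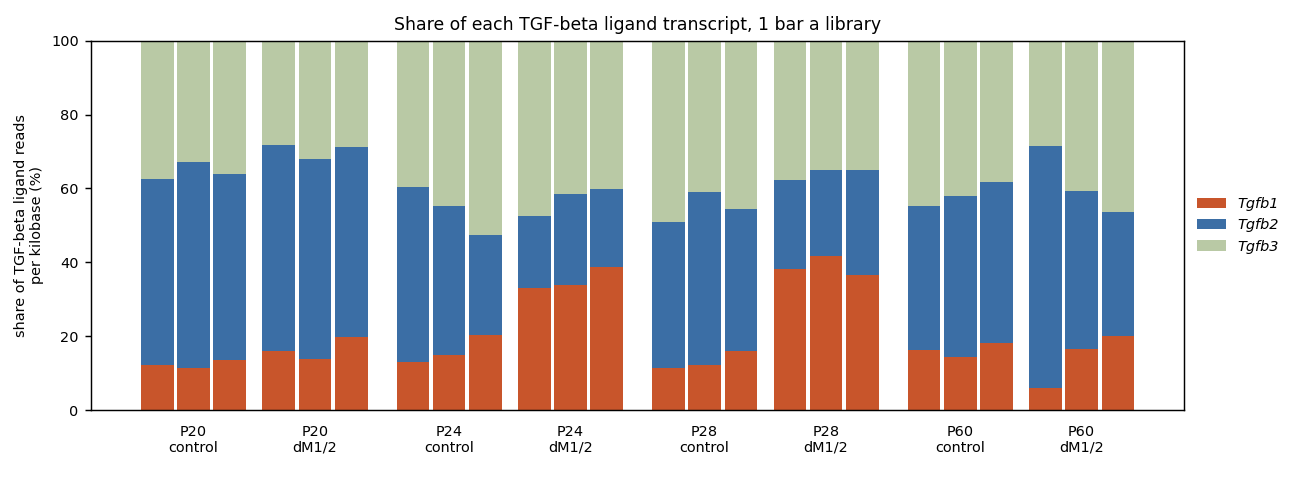
Share (%) of Tgfb1, Tgfb2 and Tgfb3 in their summed normalized reads per kilobase of exon, a stacked bar for each of the 24 libraries, grouped by age and genotype. The Tgfb1 share of the 6 anagen dM1/2 libraries lay between 33.0% and 41.6%, and that of the 6 anagen controls between 11.4% and 20.4%.

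Ltbp1, which anchors latent TGF-beta in the matrix, was 42560.5, 35016 and 54641 normalized reads in P28 controls and 25156, 22530.1 and 21432 in P28 dM1/2. The ranges did not overlap, the control mean was 1.91 times the dM1/2 mean, and the log2 difference was −0.91 ± 0.27 (SE), adjusted p = 0.0376. It was −0.75 without the library labelled P28 control 3, and the call was lost without P28 control 1 or any of the 3 dM1/2 libraries (highest adjusted p 0.14). At P24 the values were 35624, 43208 and 28936 in controls and 16405, 32156 and 30739 in dM1/2, with 1 dM1/2 library far below the others and an adjusted p of 0.29. At P20 the ranges were separate, at 16684 to 17524 in controls and 12974 to 14735 in dM1/2, but the test did not pass (−0.30 ± 0.12 (SE), adjusted p = 0.208).

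Of the receptors, the co-receptor Tgfbr3 differed by genotype. At P24 it was 5926, 4371 and 3679 normalized reads in controls and 3103, 2683 and 2507 in dM1/2 (−0.73 ± 0.19 (SE), adjusted p = 0.0272), and at P28 6914, 13018 and 4376 in controls and 2717, 2716 and 3297 in dM1/2 (−1.34 ± 0.37 (SE), adjusted p = 0.0298). In both comparisons every dM1/2 library lay below every control, and the P28 controls alone spanned 4376 to 13018. The difference was −1.71 without the library labelled P28 control 3 and −0.92 without P28 control 2, both past the test. The P28 call was lost without P28 control 1 or any dM1/2 library (highest adjusted p 0.101), and the P24 call without P24 control 1, P24 control 2 or any dM1/2 library (highest 0.0896). At P20 dM1/2 was also the lower group, with 14278, 14430.4 and 13021 in controls and 11135, 10331 and 9449 in dM1/2 (−0.43 ± 0.12 (SE), adjusted p = 0.107). At P60 dM1/2 was the higher group, with 16561 to 20651 and 21329 to 24819, again without a call (adjusted p = 0.986).

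The ligand-binding receptor Tgfbr2 was spread widely among the P28 controls, at 7546, 10031 and 2717 normalized reads against 2994, 2976 and 3622 in dM1/2. Its lowest value, in the library labelled P28 control 3, lay under those of dM1/2, and the difference did not pass (−0.89 ± 0.45 (SE), adjusted p = 0.173), whereas without that library it was −1.45, adjusted p = 0.000815, and without P28 control 2 it was −0.51, adjusted p = 0.367. At P24 the ranges were 3827 to 7973 in controls and 3659.5 to 3983 in dM1/2 (adjusted p = 0.202). The kinase receptor Tgfbr1 ranged from 2685 to 3952 in P28 controls and from 1895 to 2749 in dM1/2 (−0.51 ± 0.20 (SE), adjusted p = 0.086), and it passed without P28 control 2 (−0.66, adjusted p = 0.0366). DESeq2 called Tgfbr1 and Tgfbr2 at P28, and limma called Tgfbr1 in 1 fit over 24 libraries. At P20, P24 and P60 the log2 difference of Tgfbr1 was 0.076, −0.021 and −0.15, with no call.

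On the activin side, the antagonist Fst passed by genotype at P24 and the ligand subunit Inhba at P28. Fst at P24 was 5961, 7662 and 9325 normalized reads in controls and 3484, 2504 and 3382 in dM1/2, with no overlap, a control mean 2.45 times the dM1/2 mean and a log2 difference of −1.28 ± 0.21 (SE), adjusted p = 0.00482. At P28 the groups overlapped, at 2353, 1209 and 2875 and 2443, 1928 and 2739.9 (0.22 ± 0.32 (SE), adjusted p = 0.643), as they did at P20, at 873, 1144 and 932 and 898, 1102 and 1186. At P60 Fst was 969.8, 634 and 648 in controls and 3401, 1003 and 678 in dM1/2, the highest of them in the library with the high endothelial sum (0.85 ± 0.53 (SE), adjusted p = 0.986).

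Inhba, the subunit of activin A, was 6819, 7108 and 11362 normalized reads in P28 controls and 4496, 3957 and 3770.5 in P28 dM1/2. The ranges did not overlap, the control mean was 2.07 times the dM1/2 mean and the log2 difference was −1.01 ± 0.22 (SE), adjusted p = 0.013. It was −0.78 without the library labelled P28 control 3, and the call was lost without dM1/2 2 or dM1/2 3 (highest adjusted p 0.0554). At P24 the groups overlapped, at 1918, 3037 and 3180.1 and 2815, 3087 and 2104 (−0.0063 ± 0.23 (SE), adjusted p = 0.988). In telogen neither difference passed: dM1/2 held 2363, 1337 and 1749.6 at P20 against 1591, 793 and 1245 in controls (0.60 ± 0.27 (SE), adjusted p = 0.246), and 202, 327 and 925 at P60 against 793, 979.5 and 1861 (−1.52 ± 0.54 (SE), adjusted p = 0.986).

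Inhbb, the subunit of activin B, did not pass by genotype at any age, with log2 differences of 0.42 and −0.016 in telogen (P20, P60) and −0.30 and −0.36 in anagen (P24, P28). It was lowest at P24 in both genotypes, from 116 to 288 normalized reads in controls and from 113 to 183 in dM1/2. Within dM1/2, 4 members passed between P24 and P28 (background 2.67%): Inhbb at 1.72 (adjusted p = 0.00687), Tgfb2 at 0.92 (adjusted p = 0.041), Tgfb1 at 0.84 (adjusted p = 0.0195) and Tgfbr1 at −0.88 (adjusted p = 0.0275). Over the same interval in dM1/2 the log2 difference of Fst was −0.40, adjusted p = 0.302, and that of Inhba 0.62, adjusted p = 0.0873, and neither passed in limma. DESeq2 called Inhba (0.60, adjusted p = 0.0188) and Tgfb3 (0.43, adjusted p = 0.0133) over this interval as well, with 8.03% of all genes called. The limma count fell to 1 without P24 dM1/2 1 (background 0.94%) or P28 dM1/2 2 (0.406%) and to 2 without P28 dM1/2 3 (1.02%).

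The ratio of Inhba to Fst reads per kilobase joins both sides. In controls it was 0.231, 0.285 and 0.245 at P24 and 2.08, 4.22 and 2.84 at P28, so that every control held more Fst than Inhba in early anagen and more Inhba than Fst in mid anagen. In dM1/2 the ratio was 0.580, 0.885 and 0.447 at P24 and 1.32, 1.47 and 0.988 at P28, above every control at P24 and below every control at P28. At P20 it was 0.922 ± 0.407 (SD, n = 3) in controls and 1.27 ± 0.541 in dM1/2, and at P60 1.25 ± 0.748 and 0.419 ± 0.495, with overlap at both ages. The exact two-sided permutation p was 0.1, the lowest it can be, at P24 and P28 (adjusted 0.178 over 16 tests). This ratio was chosen after the values were seen.

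**Figure D4:**
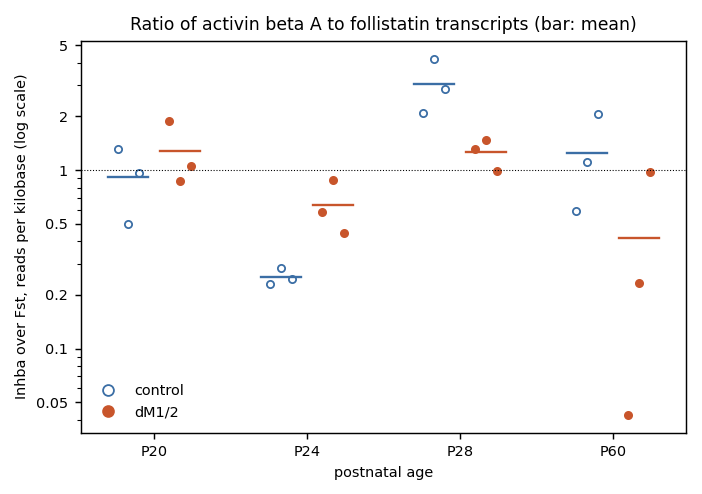
Ratio of Inhba to Fst normalized reads per kilobase (log axis) in each library by age, open circles for controls, filled circles for dM1/2, bars for the means and a dotted line at a ratio of 1. The controls lay between 0.231 and 0.285 at P24 and between 2.08 and 4.22 at P28, with the dM1/2 libraries between these ranges at both ages.

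Whether the genotype effect itself differed between stages was tested in fits over both genotypes. Between anagen (P24 and P28) and telogen (P20 and P60) it differed for 3 members (background 30.2%): Tgfb1, by 1.18 (adjusted p = 0.00233), Tgfb2, by −0.99 (adjusted p = 0.0255), and Tgfbr3, by −0.97 (adjusted p = 0.00708). The share of members called was near the background. All 3 calls held in each of the 24 fits that left out 1 library. Fst did not pass in limma (−1.01, adjusted p = 0.0642), but passed in edgeR (−1.18, adjusted p = 0.0333) and DESeq2 (−1.22, adjusted p = 0.0126). The largest differences of the other members were those of Tgfbr2, −0.67 (adjusted p = 0.171), and Inhbb, −0.53 (adjusted p = 0.371). Between P24 and P28 no member passed (background 0.707%), with 3 at an unadjusted p under 0.05, 0 called by edgeR (0.728% of all genes) and 1 by DESeq2 (4.21% of all genes). The call of Fst at P24 and not at P28 (1.5, adjusted p = 0.138) and that of Inhba at P28 and not at P24 (−1.01, adjusted p = 0.243) are thus not shown by limma to be differences between these ages, while DESeq2 called that of Fst (1.42, adjusted p = 0.0254).

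Another 63 genes of the pathway were listed in 6 groups by role. Of the 52 tested at P24, 5 were higher and 9 lower in dM1/2 (26.9% called), and of 52 at P28, 5 were higher and 11 lower (30.8%), against 26.6% and 35.5% of all genes tested. Leaving out 1 library at a time, an alternative chosen after the data were seen, moved these counts by over 1.5 times. At P24 the count was 9 (2 higher and 7 lower, 17.3% against 14.6% of all genes) without control 2, 22 (4 higher and 18 lower, 42.3% against 28.7% of all genes) without control 3 and 9 (2 higher and 7 lower, 17.3% against 16.8% of all genes) without dM1/2 3. At P28 it was 9 (2 higher and 7 lower, 17.3% against 23.1% of all genes) without control 1, 26 (4 higher and 22 lower, 50% against 40.9% of all genes) without control 3, 8 (1 higher and 7 lower, 15.4% against 21.5% of all genes) without dM1/2 2 and 10 (2 higher and 8 lower, 19.2% against 23.4% of all genes) without dM1/2 3. In these refits the share called was above that of all genes at P24, and at P28 above it without control 3 and below it in the other 3. More genes were lower than higher in each of them. At P20, 1 of 53 was called, Gdf11, and at P60 0 of 53.

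The group of latency and activation genes lay lowest. At P24 1 of 12 were higher and 5 lower in dM1/2, and at P28 0 of 12 were higher and 6 lower (50% called at both ages, against 26.6% and 35.5% of all genes). The median log2 difference was −0.76 and −1.10, beside −0.013 and 0.0038 over all genes. The count was 3 without P24 control 2 (25% against 14.6% of all genes) and 9 without P24 control 3 (75% against 28.7%). It was 4 without P28 control 1 (33.3% against 23.1%) or P28 dM1/2 2 (33.3% against 21.5%) and 9 without P28 control 3 (75% against 40.9%). Ltbp3, another binding protein of latent TGF-beta, was 8337 ± 1304 in controls and 2466 ± 258 in dM1/2 at P28 (−1.75, adjusted p = 0.000691), and Ltbp2, a matrix protein of the same family, 2603 ± 572 in controls and 865 ± 547 in dM1/2 (−1.78, adjusted p = 0.0246). At P24 the largest falls were those of Itgb8, an integrin subunit that releases latent TGF-beta (−1.83, adjusted p = 0.0247), and Emilin1, a matrix protein that restrains the maturation of Tgfb1 (−1.38, adjusted p = 0.000842), and the rise was that of Fbn2, a microfibril protein (0.72, adjusted p = 0.0192). The 6 called at P28 were Fbn1, Furin, Itgav, Emilin1, Ltbp2 and Ltbp3, all of them lower in dM1/2, as Ltbp1 was. The summed DP markers were lower in dM1/2 at both ages too, and their part in this was not tested.

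Of the other ligands 3 of 10 were high enough to test, and Gdf11, which uses activin receptors, was higher in dM1/2 at P20 (1.22, adjusted p = 0.0194), P24 (1.08, adjusted p = 0.00304) and P28 (1.06, adjusted p = 0.0335). At P28 it was 668 ± 273 in controls and 1312 ± 49.3 in dM1/2. Its P28 call was lost without P28 control 1 and in each fit that left out 1 P28 dM1/2 library. Of the other receptors, 0 of 5 were called at P24 and 1 of 5 at P28, the activin type I receptor Acvr1b (−0.55, adjusted p = 0.027). The Acvr1b call was lost without P28 control 1, dM1/2 2 or dM1/2 3. Among the extracellular and membrane antagonists 1 of 6 was called at P24, Fmod, a matrix proteoglycan that binds TGF-beta (−1.31, adjusted p = 0.0374), and 1 of 6 at P28, the follistatin-like activin binder Fstl3 (−1.26, adjusted p = 0.00698). The Fmod call was lost in each fit that left out 1 P24 dM1/2 library. The medians of these 3 groups at P28 were −0.14, −0.27 and −0.25, beside 0.0038 over all genes. Of all genes tested, 26.6% were called at P24 and 35.5% at P28.

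Among the Smads and their regulators, at P24 1 of 12 were higher and 1 lower, and at P28 3 of 12 were higher and 2 lower, with medians of −0.092 and −0.11. These were 16.7% and 41.7% called, against 26.6% and 35.5% of all genes. Tgif1, a repressor that binds active Smads, rose at P24 (0.69, adjusted p = 0.00845) and P28 (1.18, adjusted p = 0.0161), and its relative Tgif2 at P28 (1.03, adjusted p = 0.0211). Without P28 dM1/2 1, 0 genes of this list were higher and 2 lower at P28 (16.7% against 29.3% of all genes). Without P28 dM1/2 2, 0 were higher and 1 lower (8.33% against 21.5%). Tgif1 and Tgif2 lost their P28 calls in both of these fits. Without P28 control 1 or dM1/2 3, 1 was higher and 1 lower (16.7% against 23.1% and 23.4%). Zfyve9, which brings Smad2 and Smad3 to the receptor, fell at both ages (−0.54, adjusted p = 0.00785, at P24, and −0.54, adjusted p = 0.00708, at P28), and Pmepa1, a target that limits Smad activation, fell at P28 (−0.56, adjusted p = 0.0305). Of the 14 genes known to respond to TGF-beta, 2 were higher and 2 lower at P24, and 1 higher and 1 lower at P28, beside medians of −0.44 and −0.30. These were 28.6% and 14.3% called, against 26.6% and 35.5% of all genes. Without P28 control 3, 1 was higher and 7 lower (57.1% against 40.9%), and without P28 control 2, 2 were higher and 1 lower (21.4% against 36.6%). Without P24 control 3, 1 was higher and 5 lower (42.9% against 28.7%), and without any other P24 library 0 were higher and 2 lower. Klf10, an early target of TGF-beta, rose at both ages (1.03, adjusted p = 0.0222, at P24, and 1.37, adjusted p = 0.00298, at P28) and Bhlhe40 rose at P24 (0.45, adjusted p = 0.0409). Ctgf (−1.27, adjusted p = 0.00671) and Nox4 (−0.91, adjusted p = 0.00437) fell at P24 and Ldlrad4 fell at P28 (−1.16, adjusted p = 0.00118). Tgfbi, Col1a1, Fn1, Acta2 and Tagln, further targets in this list named after their values were seen, did not pass at any age with all libraries in the fit.

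**Figure D5:**
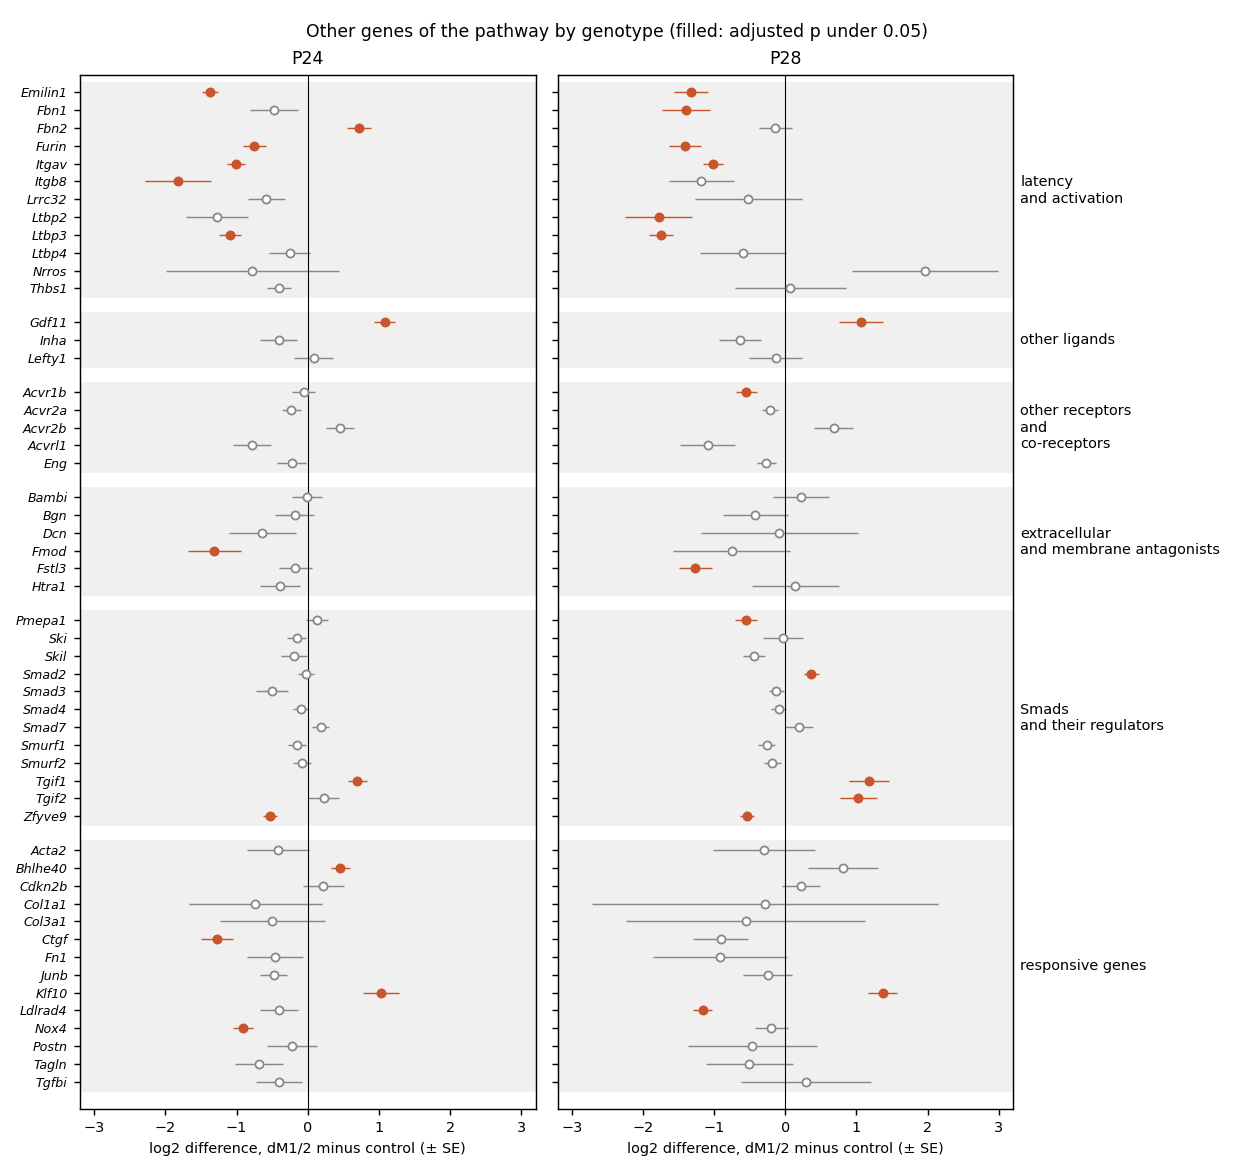
Log2 difference between dM1/2 and controls, with its standard error, of the other pathway genes tested at P24 (left) and P28 (right), a row for each gene and a shaded band for each list, filled where the limma adjusted p was under 0.05. At P28 the 6 called latency and activation genes all lay below 0, and the called genes above 0 were Gdf11, Smad2, Tgif1, Tgif2 and Klf10.

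The pattern of Tgfb1 over the 24 libraries, on the log2 scale, was most like those of Ass1, an enzyme of arginine synthesis (Pearson r = 0.930), Pkm, a pyruvate kinase (r = 0.891), and Rassf3 (r = 0.878), among 14242 genes compared. That of Tgfbr3, the member that fell most at P28, was most like those of Celf2, an RNA-binding protein, Cd47, a surface protein, and Nfix, a transcription factor, each at r = 0.986. These correlations describe 24 libraries that share their age, genotype group and depth, and no test was made on them.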

How the data were processed

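Libraries of FACS-sorted DP cells, 24 in all, were assigned by the age and genotype in their labels, 3 for each genotype and age. Per the methods, the authors prepared strand-specific libraries after ribosomal depletion, cleaned single-end reads (Trimmomatic), mapped them with Tophat 2 to mm10, and obtained read counts per Ensembl gene of GRCm38.p4 with HTSeq and size factors with DESeq2. The deposited signal is each count divided by the library's size factor, from all 24 libraries together. Dividing by the value of 1 read gave whole reads for 100% of values (tolerance 0.01). The authors' log2 fold changes and p-values, deposited beside the signal for each age, were not used.

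Differences were tested with limma 3.58.1 (R 4.3.3) on log2(signal + 1), with trend, for genes with a mean of at least 10 over the libraries of the fit. Fold changes on this scale understate changes of low genes. Genotype was tested within each age, age within all controls or the P24 and P28 dM1/2 libraries, and the genotype effect between ages over the libraries concerned. P-values were adjusted (Benjamini-Hochberg) over all genes tested, with a threshold of 0.05. Alternatives were a pseudocount of 10, edgeR 4.0.16 (quasi-likelihood, TMM) and DESeq2 1.42.0 on the recovered reads, the replicate number as a block, each library left out and, for genotype, no filter, 1 fit over 24 libraries and log2 CPM (prior count 2). The tests were tried on simulated counts. Exact two-sided permutation tests were used for ratios.

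No 2 replicates agreed within counting error. Lengths were exon unions of the GENCODE vM21 annotation, matched by identifier for 25431 of 25755 genes. Each library was 1 mouse. All 10 members, the targeted genes, and the called genes of the 6 pathway lists with the largest changes (up to 2 in each direction at P24 and at P28) were named, with the 3 genes most like the member that rose most and the member that fell most at P28. The members and lists were chosen with earlier results of these data known. 1 gene of the pathway lists is not reported here. Protein sequences were not used here.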

Additional observations from a re-analysis of the deposited data

Results flagged for a closer look

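The effect of genotype differed between anagen and telogen for 3 members by the test of the difference itself (limma, adjusted over all genes; 30.2% of genes passed). For Tgfb1 the log2 effect of dM1/2 was larger by 1.18 in anagen (adjusted p = 0.00233). For Tgfb2 it was −0.99 (adjusted p = 0.0255) and for Tgfbr3 −0.97 (adjusted p = 0.00708), so that both were lower in dM1/2 in anagen relative to telogen. Depth, sex and the summed DP markers of the controls moved with stage, and their part in these differences was not tested. No outlier test was run among libraries, since each group has 3, although P28 control 3 and P60 dM1/2 1 were singled out above by their values.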

How the results depend on the processing

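Of the 48 calls of single members, none changed direction under any alternative, and 678 of 753 refits kept the call. DESeq2 called 1 member by genotype at P20 (4.82% of all genes), 1 in controls from P20 to P60 (12.5%) and 1 for the effect between P24 and P28 (4.21%). In these comparisons limma called 0 members (0.433%, 8.36% and 0.707% of all genes). Leaving out each library gave 0 to 1 members at P20, 2 to 5 at P24, 3 to 7 at P28 and 0 throughout at P60. The share of all genes called ran from 0 to 11.1% at P20, 14.6 to 28.7% at P24, 21.5 to 40.9% at P28 and 0 to 0.0143% at P60. In controls, leaving out each library gave 6 to 10 from P20 to P24 (21.5 to 37.5% of all genes) and 2 to 5 from P24 to P28 (2.11 to 7.64%). It gave 0 to 1 from P20 to P60 (1.19 to 13.9%) and 2 to 5 from P20 to P28 (17 to 34.8%). In dM1/2 it gave 1 to 3 from P24 to P28 (0.406 to 3.16%). Each refit also had fewer libraries, and the cause of these shifts was not tested.

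With the replicate number as a block, 1 member was called at P20 (Inhba, with 3.17% of all genes called) and 5 in controls from P20 to P28 (27.1% of all genes). At P28 Ltbp1 and Tgfbr3 lost their calls and Tgfbr1 gained one (−0.51, adjusted p = 0.0487). Tgfb2 gained one in controls from P24 to P60. The labels do not say whether the numbers pair the libraries. Each library was taken as its log2 deviations, gene by gene, from the mean of its own group. These deviations correlated between same-numbered control and dM1/2 libraries at 0.0822 to 0.231 at P20 and −0.401 to 0.0425 at P24. The correlations were −0.229 to 0.027 at P28 and 0.0238 to 0.344 at P60. At these ages 6, 0, 1 and 3 of the 6 libraries correlated best with their own number. The numbers thus went with likeness of the deviations at P20 and not at P24 or P28. The deviations within a group depend on each other, and no test was made. At P28 Inhba lost its call and Tgfbr1 gained one (adjusted p = 0.0329) in 1 fit over 24 libraries, and Ltbp1 lost its call without the filter. From P24 to P28, edgeR did not call Tgfb2 in dM1/2, and DESeq2 called Tgfb2 in controls. Depth limits values under 8.60 normalized reads, the most that 3 reads amount to in any library.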
